A study of Rattus norvegicus with 14 samples.

Results

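The acute phase plasma proteins are secreted by the liver into the blood, and 6 genes that encode such proteins are described here: A2m, Orm1, Hp, C3, Serpina3n and Lcn2. Every probe set whose platform gene symbol was one of these names was taken, which gave 12 of the 8740 probe sets on the array, each with 1 symbol, for 6 of 4736 named genes. They were measured with single-channel Affymetrix rat arrays in livers of male rats aged 74 days that had been fed for 53 days on a diet with sufficient vitamin A or one deficient in it. Strain and diet composition are not given in these sources. Each diet had 7 arrays, 4 hybridised with target made from about 10 µg of total RNA (numbers 1 to 4) and 3 from about 2 µg (numbers 1, 2 and 4). Arrays of 1 diet and number were averaged after the mean shift between RNA amounts had been removed, and each such average is called an animal below, so that n = 4 per diet. Animal 3 of each diet rests on 1 array. Which arrays come from the same liver is not in the labels, and p-values therefore measure the spread between these averages, part of which may be technical. A level is the log2 of an intensity, scaled to the same trimmed mean on every array, to which 16 was added, so that an intensity of 0 reads as 4. Levels of different probe sets are not comparable with each other, because each probe set binds its target with its own strength. A difference is deficient minus sufficient, with its standard error (SE).

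Inflammation and tissue injury make the liver change the mix of proteins it secretes. Interleukin-6, acting through the transcription factor STAT3, and interleukin-1, acting through NF-kB and C/EBP factors, raise a set of positive acute phase proteins, glucocorticoids strengthen many of these responses, and other plasma proteins fall in return. A2m encodes alpha-2-macroglobulin, a protease-trapping protein that is a major acute phase reactant in the rat. Orm1 encodes alpha-1-acid glycoprotein, a lipocalin that binds drugs and lipids. Hp encodes haptoglobin, which captures free haemoglobin. C3 encodes the central component of complement. Serpina3n encodes a secreted serine protease inhibitor, and Lcn2 encodes lipocalin 2, which binds bacterial iron carriers.

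The promoters of 4 of the 6 genes are shown because acute phase genes are known to share inducing factors. The sequences are from RefSeq on the build GRCr8, run 5′ to 3′ on the strand of the gene, and cover the 250 bases before the annotated start, except that for Lcn2 the 71 bases nearest the start are left out since they lie inside the annotated gene. Capitals mark matches on either strand to any of the letters searched: TTCNNNGAA for STAT3, CTGGGAA for the type II interleukin-6 element, TTNNGNAAT for C/EBP, and the consensus letters of NF-kB and of the glucocorticoid receptor. Neighbouring matches can overlap and then form 1 run of capitals.
Orm1, chr5:81788259-81788508, plus strand: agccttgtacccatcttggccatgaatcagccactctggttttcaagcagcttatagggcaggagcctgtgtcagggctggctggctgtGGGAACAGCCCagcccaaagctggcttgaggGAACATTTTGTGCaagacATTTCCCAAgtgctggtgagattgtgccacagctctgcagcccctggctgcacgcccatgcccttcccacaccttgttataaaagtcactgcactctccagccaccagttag
C3, chr9:2201340-2201589, minus strand: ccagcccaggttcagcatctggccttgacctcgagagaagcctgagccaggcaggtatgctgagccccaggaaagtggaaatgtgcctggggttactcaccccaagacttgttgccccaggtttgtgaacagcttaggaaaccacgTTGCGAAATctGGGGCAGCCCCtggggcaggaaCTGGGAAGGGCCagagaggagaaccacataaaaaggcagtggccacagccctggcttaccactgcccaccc
Serpina3n, chr6:129088142-129088391, plus strand: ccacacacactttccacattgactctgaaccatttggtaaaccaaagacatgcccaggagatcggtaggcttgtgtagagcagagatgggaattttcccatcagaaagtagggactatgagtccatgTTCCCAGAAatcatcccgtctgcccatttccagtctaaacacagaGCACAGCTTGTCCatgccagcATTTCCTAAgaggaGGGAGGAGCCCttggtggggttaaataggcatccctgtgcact
Lcn2, chr3:36081852-36082030, minus strand: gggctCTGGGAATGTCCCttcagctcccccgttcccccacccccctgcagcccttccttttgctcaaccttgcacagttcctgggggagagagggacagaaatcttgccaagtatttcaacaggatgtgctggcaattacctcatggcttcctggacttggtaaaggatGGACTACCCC
Serpina3n held the only STAT3 match among the 4 sequences, TTCCCAGAA at 123 to 115 bases before the start, and the type II interleukin-6 letters overlap it at 123 to 117. C3 held the type II interleukin-6 letters at 71 to 65 bases before its start and Lcn2 at 245 to 239. C/EBP letters lay at 112 to 104 bases before the start of Orm1, at 104 to 96 in C3 and at 57 to 49 in Serpina3n. The glucocorticoid receptor letters were found in Orm1, as GAACATTTTGTGC at 130 to 118, and in Serpina3n, as GCACAGCTTGTCC at 78 to 66. NF-kB letters were found in all 4 sequences, and in C3 and Lcn2 a match overlaps the type II interleukin-6 letters. Over 33469 RefSeq promoters of 250 bases, 7.67% held the STAT3 letters, 9.56% the type II interleukin-6 letters, 10.9% the C/EBP letters, 42.3% the NF-kB letters and 0.373% the glucocorticoid receptor letters. A match describes these letters and does not show that a factor binds there.

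Each array carried 8740 probe sets besides 59 controls, and 5244 passed a filter on low mean level, set at 6.20. Precision is limited by how few arrays there are. Of the hepatocyte markers 10 of 10 passed the filter. So did 5 of 5 markers of red cells, 4 of 4 of bile duct cells and 1 of 1 of B cells on the array. Of the macrophage markers on the array 7 of 9 passed, and of the stellate and mesenchymal markers 6 of 7. For endothelial cells it was 3 of 4, for T and NK cells 3 of 9 and for neutrophils 0 of 7. Passing the filter therefore does not by itself identify the tissue. In whole liver, fewer cells of a type and less RNA per cell cannot be told apart. Markers of red cell precursors and red cells moved with the diet: 4 of 5 were lower in deficient livers at an adjusted p under 0.05, and their summed intensity was 3768 to 6429 in deficient and 12194 to 15126 in sufficient animals. Of 10 hepatocyte markers 9 had a difference above 0, with a median of 0.18, beside 58.4% and 0.04 over all tested probe sets. Arg1 among them was higher at 0.63 (limma adjusted p = 0.0310). The endothelial marker Lyve1 was lower at -1.04 (limma adjusted p = 0.00731) and the mesenchymal marker Vim higher at 0.80 (limma adjusted p = 0.0357). Over all tested probe sets 1.72% passed. The part of these markers in the values below was not tested.

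No acute phase gene passed the test for a difference between the diets, and for every probe set the wider of the ranges within a diet exceeded the difference of the diet means. Of the 12 probe sets 11 passed the filter, and 0 of the 11 passed an adjusted p of 0.05 in limma, with adjusted p from 0.320 to 0.830. Over all tested probe sets 1.72% passed, 90 of 5244, with 0.725% higher and 0.992% lower. Values of deficient and sufficient animals overlapped in 11 of 11 probe sets, whereas 8.91% of all tested probe sets had no overlap. At an unadjusted p under 0.05 there were 2 of 11, 1 of A2m and 1 of Lcn2, beside 14.5% of all tested probe sets, or 9.08% when those above 0 alone are counted. All 11 differences were above 0, with a median of 0.28, beside 58.4% and a median of 0.04 over all tested probe sets. Several of the 11 are probe sets of the same gene, A2m or C3, and are not independent. By the brightest probe set of each gene the differences were 0.80 for A2m and 0.86 for Lcn2. They were 0.17 for Serpina3n, 0.16 for Orm1, 0.15 for Hp and 0.11 for C3. Among the 100 probe sets of highest mean level, where 3 of the 6 genes lie, 83% of differences were above 0, with a median of 0.13. The positive sign was not kept in every analysis. With animals 3 of both diets left out 4 of 11 differences were below 0. With quantile normalization the difference of the dimmer C3 probe set was -0.0032 and that of Hp was 0 within rounding. Quantile normalization gives every array the same set of values, which leaves little room for a difference of Hp, at rank 2 of 8740 by mean level. The part of this in either value was not tested.

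A2m varied most among the 6 genes, and its range within each diet exceeded the difference between the diet means. In sufficient animals 1 to 4 the A2m level, by the brightest of its probe sets (M23566exon_s_at), was 10.70, 11.73, 9.79 and 11.55. In deficient animals 1 to 4 it was 10.96, 11.20, 12.94 and 11.89. The highest level was that of deficient animal 3, the lowest that of sufficient animal 3, and the other 6 animals of both diets lay between 10.70 and 11.89. The range was 3.85-fold within the sufficient diet, 3.96-fold within the deficient diet and 8.92-fold over all 8 animals.

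The deficient mean of A2m was 11.75 ± 0.89 and the sufficient mean 10.94 ± 0.89 (SD, n = 4 each), a difference of 0.80 (SE 0.47, limma adjusted p = 0.498) and a ratio of 1.75. The 95% interval of the difference ran from -0.23 to 1.84, so that these animals leave both a slightly lower level and one up to 3.59-fold higher within the interval. The difference was 0.41 without deficient animal 3, 0.42 without sufficient animal 3 and 0.02 without both (adjusted p = 0.987), the last an analysis added after the values were seen. Deficient animal 3 stood 3.02-fold above the mean of the other 3 deficient animals, and sufficient animal 3 stood 1.54 log2 units below the other 3 sufficient animals. By the size of the SD within diets, 0.89, A2m ranked above 99.3% of the tested probe sets, whose median SD was 0.24.

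**Figure D1:**
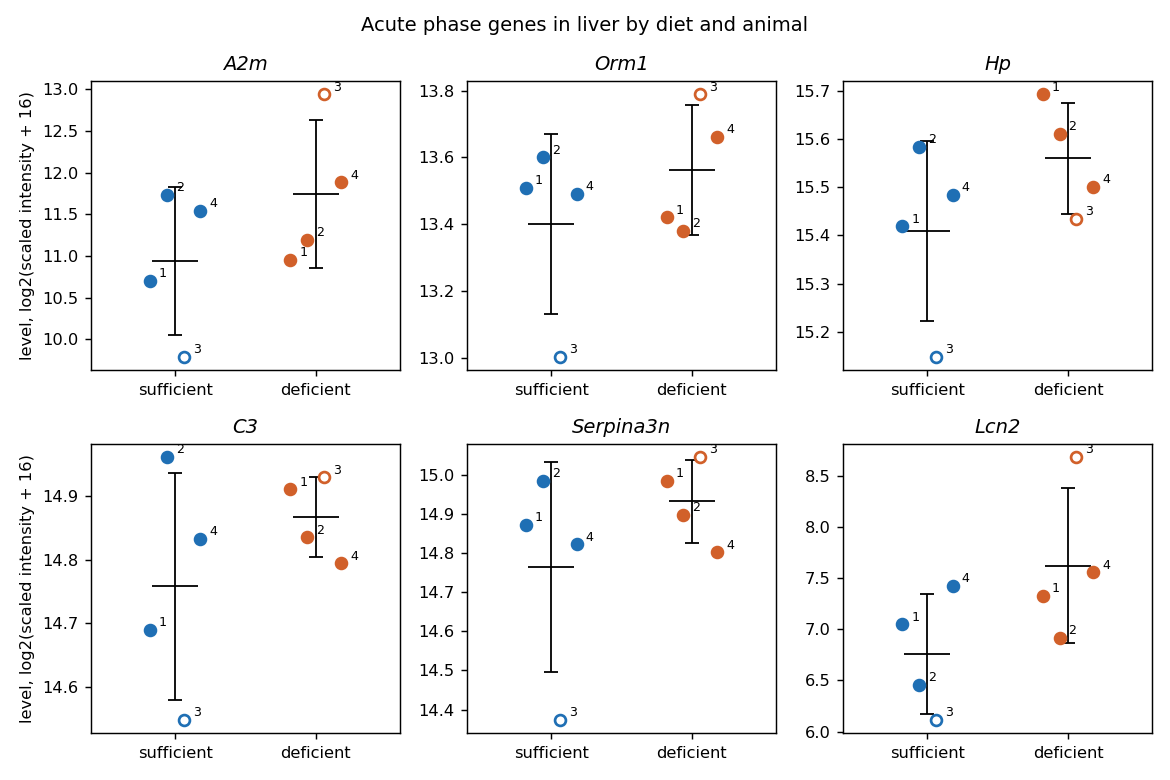
Level of each gene in every animal by its brightest probe set, as log2 of scaled intensity plus 16 on a separate vertical axis per gene. Points are animals with their numbers, open points are animals 3 with 1 array, and bars give the mean and SD of 4 animals. Sufficient animal 3 is the lowest point in all 6 panels and deficient animal 3 the highest in 4.

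A2m has 6 probe sets on the array, and 5 of them were tested. The second brightest, rc_AA900582_at, read 9.43, 10.52, 8.74 and 10.49 in sufficient animals 1 to 4 and 9.62, 9.98, 12.04 and 10.66 in deficient animals 1 to 4. It put the 8 animals in the same order as the first, with a Spearman's rho of 1 and a Pearson's r of 0.990 over deviations from the diet means. Its difference was 0.78 (SE 0.52, limma adjusted p = 0.564), and -0.06 without animals 3. The tested probe sets M22670cds_g_at and M22670cds_at, which are dimmer, had differences of 0.73 (SE 0.40, adjusted p = 0.456) and 1.02 (SE 0.44, adjusted p = 0.320). The second of these had an unadjusted p of 0.0405 in limma and a 95% interval from 0.05 to 1.99, and without both animals 3 its difference was 0.34. X13983mRNA_at moved least, at 0.28 (SE 0.28, adjusted p = 0.748), and its lowest animal was deficient animal 1, at 8.01. Between tested A2m probe sets r lay between 0.741 and 0.990, so that the 5 follow the same animals to differing degrees. The sixth, rc_AI113046_at, had levels of 4.16 to 5.43, near the bottom of the scale at 4, and was not tested.

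**Figure D2:**
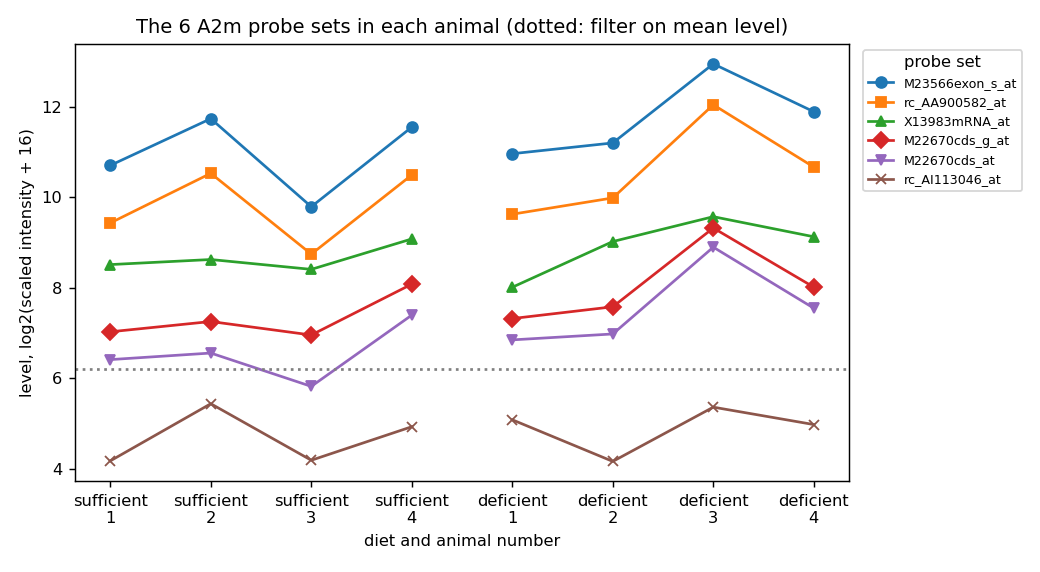
Level of the 6 A2m probe sets (log2 of scaled intensity plus 16) in each animal, 1 line per probe set and diet, with animals along the horizontal axis and the filter on mean level dotted. In 5 probe sets deficient animal 3 is the highest of the 8 animals, and in 4 sufficient animal 3 is the lowest.

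Lcn2 was the dimmest of the 6 genes in rank, at 4020 of 8740 probe sets by mean level. Its level in sufficient animals 1 to 4 was 7.05, 6.46, 6.12 and 7.42. In deficient animals 1 to 4 it was 7.32, 6.92, 8.68 and 7.56. As for A2m, deficient animal 3 was highest and sufficient animal 3 lowest, and 2 deficient animals lay within the sufficient range. The means were 7.62 ± 0.76 and 6.76 ± 0.59 (SD, n = 4 each), and the difference was 0.86 (SE 0.38, unadjusted p = 0.0428 and adjusted p = 0.326 in limma), a ratio of 1.81. Its 95% interval ran from 0.03 to 1.68. Without deficient animal 3 the Lcn2 difference was 0.50, and without both animals 3 it was 0.29. The SD within diets, 0.68, lay above that of 97.1% of tested probe sets.

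Neutrophils also carry lipocalin 2, and their markers were at the lower end of the scale. All 7 neutrophil markers on the array fell under the filter, and their summed intensity was 179 to 216 in deficient and 150 to 255 in sufficient animals, with overlap. S100a8, a calcium-binding protein abundant in neutrophils, had levels of 4.27 to 5.45, lowest in sufficient animal 3. Its partner S100a9 read 6.30, 5.15, 4.71 and 6.99 in sufficient animals 1 to 4 and 5.89, 5.63, 6.75 and 5.83 in deficient animals 1 to 4. As for Lcn2, sufficient animal 3 was the lowest of 8 and deficient animal 3 the highest of its diet, and both S100 genes put the sufficient animals in the order of Lcn2. Other neutrophil markers did not follow Lcn2 in this way: Mmp8 and Defa5 were lowest of 8 in deficient animal 3, at 4.61 and 4.65. Mmp9 read 5.67 in deficient animal 3 and 5.94 in sufficient animal 3. Cxcr2 read 5.79 and 5.67 in these animals, and RatNP-3b 4.98 and 4.73. For RatNP-3b sufficient animal 3 was the lowest of 8, as for Lcn2, but deficient animal 3 was the lowest of its diet. The remaining listed markers are not on the array. The part of neutrophil RNA in the Lcn2 values was not tested.

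Orm1 lay at rank 128 of 8740 by mean level. Its level was 13.51, 13.60, 13.00 and 13.49 in sufficient animals 1 to 4. It was 13.42, 13.38, 13.79 and 13.66 in deficient animals 1 to 4. Deficient animals 3 and 4 lay above every sufficient animal, deficient animals 1 and 2 lay below 3 of the 4 sufficient animals, and sufficient animal 3 was lowest. The difference of the means, 13.56 ± 0.20 against 13.40 ± 0.27 (SD, n = 4 each), was 0.16 (SE 0.14, limma adjusted p = 0.690), and it was 0.0296 without sufficient animal 3 and -0.05 without both animals 3. The 95% interval of the difference in Orm1 level ran from -0.16 to 0.48, and its upper end is 1.40-fold.

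Hp was the second brightest of all 8740 probe sets. Its level was 15.42, 15.58, 15.15 and 15.48 in sufficient animals 1 to 4 and 15.69, 15.61, 15.43 and 15.50 in deficient animals 1 to 4. Here deficient animal 1, not animal 3, was highest, and deficient animal 3 was the lowest of its diet. The range over all 8 animals was 1.46-fold. The Hp difference was 0.15 (SE 0.10, limma adjusted p = 0.578) on means of 15.56 ± 0.11 and 15.41 ± 0.19 (SD, n = 4 each), with an upper limit of 1.30-fold from the 95% interval, and it was 0.0638 without sufficient animal 3 and 0.11 without both animals 3.

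C3 was the steadiest of the 6 genes. The level of its brighter probe set, X52477_at, was 14.69, 14.96, 14.55 and 14.83 in sufficient animals 1 to 4 and 14.91, 14.84, 14.93 and 14.79 in deficient animals 1 to 4. The highest and the lowest animal were both sufficient, and the range over all 8 was 1.33-fold. The C3 difference was 0.11 (SE 0.10, limma adjusted p = 0.693), with an upper limit of 1.25-fold from the 95% interval. It was 0.0392 without sufficient animal 3 and 0.0185 without both animals 3. The dimmer C3 probe set, M29866_s_at, differed by 0.08 (SE 0.11, adjusted p = 0.830), and the r of both was 0.778 over deviations from the diet means. Without sufficient animal 3 the difference of this probe set was -0.02.

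Serpina3n lay next to C3 in rank, at 23 of 8740 beside 25. Its level was 14.87, 14.98, 14.37 and 14.82 in sufficient animals 1 to 4. It was 14.98, 14.90, 15.05 and 14.80 in deficient animals 1 to 4. Sufficient animal 3 was low and the other 7 animals lay between 14.80 and 15.05. The Serpina3n difference was 0.17 (SE 0.13, limma adjusted p = 0.617) on means of 14.93 ± 0.11 and 14.76 ± 0.27 (SD, n = 4 each). It was 0.0395 without sufficient animal 3 and 0.00 without both animals 3, and the upper end of the 95% interval was 1.36-fold.

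**Figure D3:**
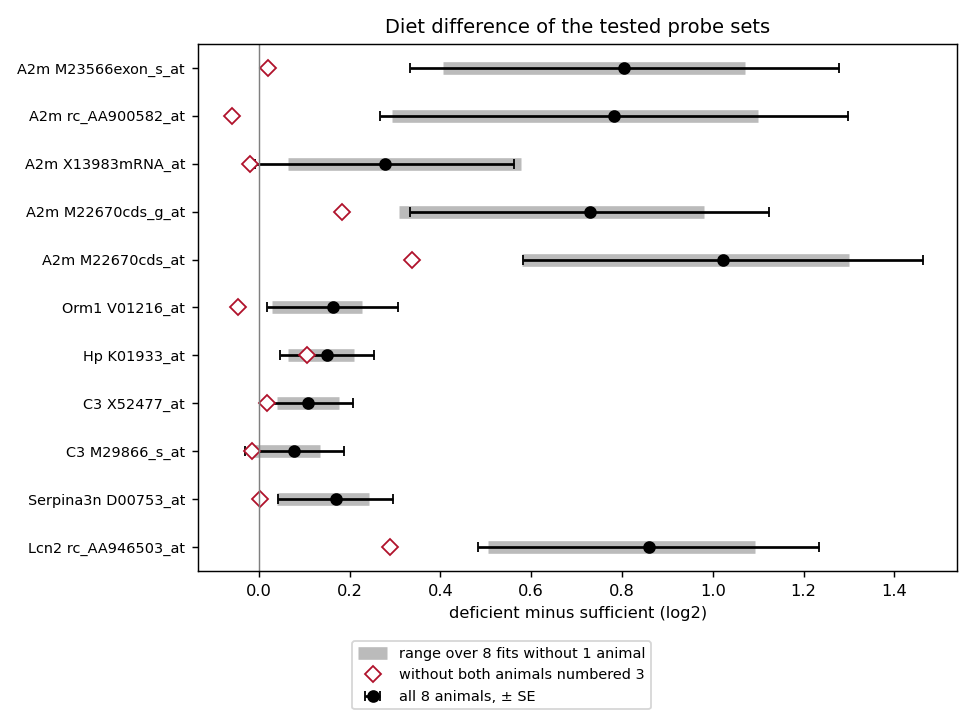
Diet difference (deficient minus sufficient, log2) of the 11 tested probe sets. Black points and bars are the difference and SE from 8 animals, grey bars the range over 8 fits that each leave out 1 animal, and open diamonds the difference without animals 3 of both diets. All 11 points lie above 0, while 4 diamonds lie below it.

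The animals numbered 3 were the extremes of most of these genes. Sufficient animal 3 was the lowest of 8 in 10 of 11 tested probe sets and in 6 of 6 genes, beside 16.2% of all tested probe sets. Deficient animal 3 was the highest in 8 of 11 probe sets and in 4 of 6 genes, beside 16.7% of all tested probe sets. Both held at once in 3.81% of all tested probe sets. For bright genes the low values of sufficient animal 3 were shared with other bright probe sets: it was lowest in 58 of the 100 brightest, at a median of 0.19 log2 units below the other sufficient animals. With quantile normalization it was lowest in 4 of 6 genes. Its distance from the other sufficient animals then changed from -0.35 to 0.03 for Hp and from -0.28 to -0.09 for C3. For A2m it changed from -1.54 to -1.51. For Serpina3n, at rank 23 of 8740 by mean level, it changed from -0.52 to -0.25. Quantile normalization leaves little room for such a distance at the very top of the scale, where Hp lies. Its part in these changes was not tested.

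Deficient animal 3 also had the highest GAPDH ratio, a sign of RNA quality, and most tested macrophage markers were highest in it and lowest in sufficient animal 3. The GAPDH signal at the 3′ end relative to the 5′ end, as a log2 ratio, was 1.12 in deficient animal 3 and 0.60 to 0.96 in the other 7 animals, and for beta-actin it was 0.49 within a range of 0.32 to 0.77. The mean level of 7 tested macrophage markers was 10.62 in deficient animal 3, 9.81 in sufficient animal 3 and 9.95 to 10.24 in the other 6 animals. Of the 7, 6 were highest of 8 in deficient animal 3 and 5 lowest in sufficient animal 3. The exception in both was Cd14, a receptor for bacterial lipopolysaccharide, at 10.60 in deficient animal 3 and 11.23 in sufficient animal 3. Itgam, an integrin under the filter, was highest of 8 in sufficient animal 3, at 5.70. Csf1r, also under the filter, read 5.72 in deficient animal 3 and 6.12 in sufficient animal 3. Its mean was 5.87 in deficient and 6.12 in sufficient animals. The summed intensity of the 9 macrophage markers on the array was 9455 to 12430 in deficient and 7566 to 8270 in sufficient animals. Over all tested probe sets 58.4% of differences were above 0, and for the tested macrophage markers 7 of 7. Of these, Lgals3, a galectin, was higher at 0.77 (SE 0.17, limma adjusted p = 0.0490), a call lost whichever of the 8 animals was left out, at adjusted p from 0.0605 to 0.135. The part of RNA quality, of macrophage markers and of the single array behind animals 3 in the acute phase values was not tested.

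How the 6 genes varied together among animals of 1 diet was read from 15 pairs, and no pair passed the test. Over the 15, Pearson's r of deviations from the diet means was above 0 in 14, with a median of 0.716, and 0 of 15 passed an exact two-sided permutation test within diets after Benjamini-Hochberg adjustment. At an unadjusted p under 0.05 there were 3. Without both animals 3, 7 of 15 values of r were above 0 and 8 below, with a median of -0.00017. Over all pairs of tested probe sets 50.9% of r were above 0, and 76.2% over pairs of the 100 brightest. The 576 possible pairings allow a p no smaller than 0.00174.

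A2m and Orm1 had the highest correlation, with r = 0.909 and rho = 0.881 (exact permutation p = 0.00868 and 0.0156, adjusted 0.130 and 0.113, n = 8). Without animals 3, the farthest from the A2m median, r was 0.854 around the same diet means, and 0.710 when diet means were taken anew. C3 and Serpina3n came next, with r = 0.876 and rho = 0.810 (exact permutation p = 0.0174 and 0.0208, adjusted 0.130 and 0.113), and r was 0.530 without both animals farthest from the C3 median, sufficient animals 2 and 3. Orm1 and Lcn2 had r = 0.724 and rho = 0.667 (exact permutation p = 0.0451 and 0.118, adjusted 0.154 and 0.253), and r was 0.489 without sufficient animal 3 and deficient animal 2. Hp stood apart from A2m and Lcn2, with r = 0.232 and -0.06. With C3 its r was 0.771 (rho = 0.714, exact permutation p = 0.0729, adjusted 0.154). With Serpina3n it was 0.763 (rho = 0.476, exact permutation p = 0.102, adjusted 0.154). Without 1 animal these r ranged from 0.45 to 0.95 with C3 and from 0.18 to 0.97 with Serpina3n. With quantile normalization they were 0.35 and 0.13. With both animals 3 left out, Hp kept r = 0.882 with C3 and 0.894 with Serpina3n, while 7 of the 15 pairs changed sign, among them Serpina3n with Lcn2 to -0.72, C3 with Lcn2 to -0.49, Orm1 with Hp to -0.40, Orm1 with Serpina3n to -0.32 and A2m with Serpina3n to -0.28. The difference between these correlations was not tested.

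**Figure D4:**
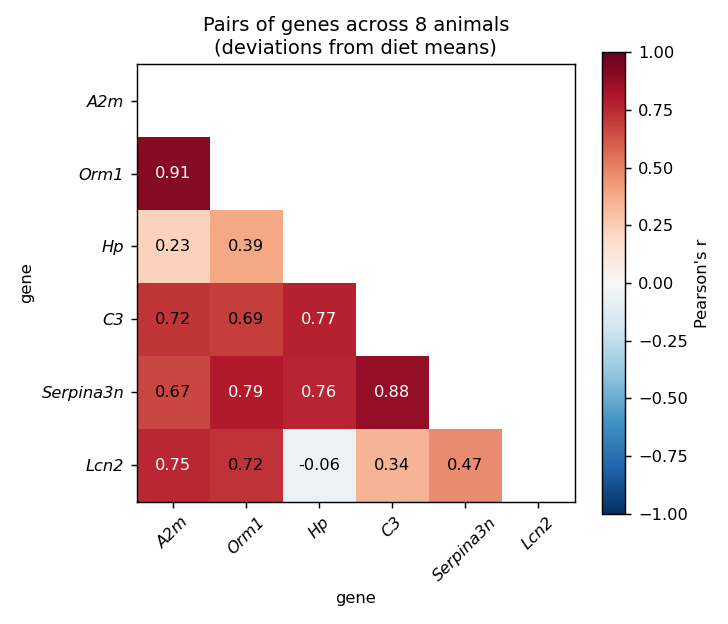
Pearson's r between pairs of the 6 genes over 8 animals, from deviations from the diet means, with the value printed in each cell and colour from -1 (blue) to 1 (red). A2m and Orm1 have the highest r, 0.91, and Hp and Lcn2 the only value below 0, at -0.06.

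By the same deviations, over 8 animals and 4329 probe sets of other genes, the genes with the highest r to each member were taken as a description. The 8 points share the scaling of their arrays, and animals 3 are the extremes of most members. For A2m these were Cdipt, a phosphatidylinositol synthase (r = 0.963), and Cdc42, a small GTPase (0.954). For Orm1 they were Clu, the secreted chaperone clusterin (0.971), and the galactosyltransferase B4galt1 (0.953). For Hp they were the corepressor Tle5 (0.979) and Alb, serum albumin (0.973). For C3 they were the RNA helicase Ddx3x (0.949) and the peptidase Tpp2 (0.946), and for Serpina3n the sodium channel subunit Scnn1a (0.981) and the phosphatase subunit Ppp1ca (0.973). For Lcn2 they were Pgm1, phosphoglucomutase (0.968), and Lgals3 (0.951). Albumin is a negative acute phase protein, and it varied with Hp among animals while its own diet difference was 0.19 (limma adjusted p = 0.384).

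Repeat arrays of 1 diet and number gave a measure of technical spread. For A2m by M23566exon_s_at the 2 µg array differed from the 10 µg array of the same number by -0.03 to 0.28, while the 6 animals with 2 arrays ranged over 1.19. For Hp the 2 µg array was higher in 6 of 6 pairs, by 0.02 to 0.21, beside a range of 0.27 over these animals. For Lcn2 the differences between arrays ran from -1.39 to 0.27 and exceeded the range over animals, 1.10. The same was true of the dimmest tested A2m probe set, M22670cds_at, at 1.35 against 1.14, and of Orm1, at 0.34 against 0.28. In the other 8 tested probe sets the range over animals was the larger.

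No acute phase probe set passed the test for RNA amount. In limma 0 of 11 probe sets passed for RNA amount, and the lowest adjusted p was 0.768, for Hp, which was 0.14 higher at 2 µg (SE 0.07, unadjusted p = 0.0607). Over all tested probe sets 0% passed, and 347 had an unadjusted p under 0.05. For the interaction of diet and amount 0 of 11 passed as well, at a lowest adjusted p of 1.00, and 96 of all tested probe sets had an unadjusted p under 0.05. Within the 10 µg arrays the A2m difference was 0.82 and that of Lcn2 0.76. Within the 2 µg arrays, which include neither animal 3, they were -0.0005 and 0.43.

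**Figure D5:**
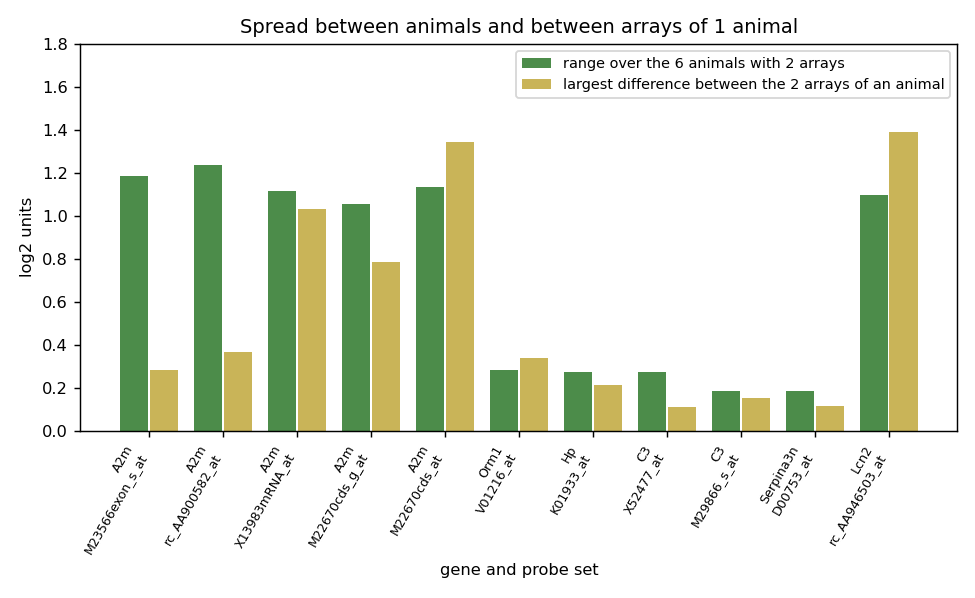
Range over the 6 animals with 2 arrays (green) and largest absolute difference between the arrays of 1 animal (yellow), in log2 units, for each tested probe set. For A2m by M23566exon_s_at the green bar is 1.19 and the yellow 0.28, whereas for Lcn2 the yellow bar, 1.39, is taller than the green, 1.10.

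Other genes of the acute phase response were read from lists of related genes, with 1 probe set per gene. Over all tested probe sets 1.72% passed in limma and 14.5% had an unadjusted p under 0.05. Differences above 0 made up 58.4%, with a median of 0.04. These shares are the background for each list below. Of 26 tested positive acute phase genes besides the 6, 0 passed in limma and 7 had an unadjusted p under 0.05. A difference above 0 was found in 22, or 84.6%, with a median of 0.16. Among the 100 probe sets of highest mean level the share was 83%, with a median of 0.13. The smallest p-values belonged to Fn1, fibronectin, at 0.25 (SE 0.10, adjusted p = 0.271), the mannose-binding lectin Mbl2 at -0.36 (SE 0.15, adjusted p = 0.288) and Itih3, a hyaluronan-binding inhibitor heavy chain, at 0.30 (SE 0.13, adjusted p = 0.310). Of 18 tested complement genes 0 passed and 2 had an unadjusted p under 0.05. Their median difference was 0.03, and Clu had the smallest p, at 0.36 (SE 0.10, adjusted p = 0.112). Mbl2, given above, came next, and then Cfd at 0.37 (SE 0.17, adjusted p = 0.366).

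Of 16 tested negative acute phase genes 1 passed. Serpina6, corticosteroid-binding globulin, was lower in deficient livers, at 11.21 ± 0.25 against 12.04 ± 0.21 (SD, n = 4 each; difference -0.84, SE 0.15, limma adjusted p = 0.0161). The call was lost without deficient animal 4, at adjusted p = 0.0557, although the difference was then -0.85. It was also lost with the 2 µg arrays alone (difference -0.86, adjusted p = 0.130) and without both animals 3 (-0.85, adjusted p = 0.0923). Serpina7, thyroxine-binding globulin, had a difference of 1.86 (SE 0.48, adjusted p = 0.0863), and Lcat, a plasma cholesterol-esterifying enzyme, 0.42 (SE 0.12, adjusted p = 0.140). The median difference over the 16 genes was 0.05, and 10 were above 0.

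Serpina6 and Serpina7 are also protease inhibitor relatives, and in that list of 16 tested genes Serpina6 was the 1 that passed, with 13 differences above 0 and a median of 0.15. Serpina4, a tissue kallikrein inhibitor, followed at 0.41 (SE 0.11, limma adjusted p = 0.0909). Among 13 tested lipocalins and iron-handling genes 1 passed, the male urinary lipocalin Obp3, at -5.02 (SE 0.47, adjusted p = 0.000198). Slc40a1, the iron exporter ferroportin, had a difference of 0.50 (SE 0.16, adjusted p = 0.157), and the endocytic receptor Lrp2 -0.50 (SE 0.19, adjusted p = 0.268).

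The signals that induce acute phase genes were weakly measured in part. Il6 and Tnf, the cytokines interleukin-6 and tumour necrosis factor, were under the filter. Il6 levels ran from 4.39 in deficient animal 3 to 5.95 in sufficient animal 3. Tnf levels ran from 4.87 to 5.19, with 4.87 in deficient animal 3 and 5.01 in sufficient animal 3. Of 26 tested genes for cytokines, receptors and transcription factors 0 passed in limma, 6 had an unadjusted p under 0.05 and 18 had a difference above 0, with a median of 0.11. The smallest p-values belonged to the transcription factor Hnf4a at 0.33 (SE 0.12, adjusted p = 0.240), the STAT3 inhibitor Pias3 at 0.36 (SE 0.14, adjusted p = 0.267) and the interleukin-6 receptor Il6r at 0.48 (SE 0.19, adjusted p = 0.272).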

How the data were processed

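Per the labels' protocols, hybridisation targets were made from about 10 µg or 2 µg of total RNA. The authors deposited 1 intensity per probe set and array on a linear scale. No source used here gives the program, its settings or its normalization. The deposited intensity of each array had a trimmed mean of 1001.9 to 1002.1 and a median of 175.1 to 231, and 0 columns were left out. In the platform annotation 7006 probe sets carry 1 symbol, 308 several and 1426 none.

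Control probe sets (59) were removed, arrays were scaled to a 2%-trimmed mean of 500, and 16 was added before log2, which understates differences of dim probe sets. Probe sets under the 40th percentile of mean level were not tested. The diet fit used lmFit and eBayes with a trend in limma 3.58.1 (R 4.3.3) on the averaged values. RNA amount and the interaction used 14 separate arrays. Two-sided p-values were adjusted over 5244 probe sets (Benjamini-Hochberg, 0.05). Fits were tested on simulated arrays. Pairs were tested with exact permutations in Python 3.11.15.

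The brightest probe set stood for a gene. Named besides the 6 genes are the 2 genes most like each and the 3 genes of smallest p in each list; the marker genes, Il6 and Tnf were named after their values were seen. The members and lists were chosen with earlier results of these data known. Alternatives left out each animal in turn, took 1 RNA amount or 14 separate arrays, set a block by number, dropped the trend, weighted arrays, changed the pseudocount to 1 or 64, the filter to none or the 60th percentile, and the scaling to a common median or quantiles.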

Additional observations from a re-analysis of the deposited data

How the results depend on the processing

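No acute phase probe set passed in any alternative. Of 251 alternative diet differences of the 11 tested probe sets 9 turned below 0, and adjusted p ran from 0.231 to 1.00. With quantile normalization, which leaves little room for a difference at the top of the scale, that of Hp was 0 within rounding. With the 2 µg arrays alone the differences turned to -0.000504 for A2m M23566exon_s_at, -0.14 for A2m rc_AA900582_at and -0.0781 for C3 M29866_s_at, which was also -0.0032 with quantile normalization. Without both animals 3, chosen after seeing the data, the signs turned for A2m rc_AA900582_at (-0.0584), A2m X13983mRNA_at (-0.0184), Orm1 (-0.0460) and C3 M29866_s_at (-0.0148). Leaving out 1 animal at a time gave C3 M29866_s_at a range of -0.0196 to 0.13. The causes were not tested.

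Over all probe sets the 90 calls by diet became 33 with the 2 µg arrays alone, 349 with 14 separate arrays and amount as covariate, and 42 without both animals 3. Without 1 animal they ranged from 48 (deficient animal 4) to 94, with 59 without sufficient animal 3. The calls divided into 38 higher and 52 lower, and into 17 and 58 with a common median. Calls by RNA amount went from 0 to 1 without both animals 3 and ranged from 0 to 2 without 1 animal. The range of the interaction was 0 to 0.

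Same-numbered arrays of 1 diet correlated at 0.202 to 0.351 in 6 pairs, against -0.254 to 0.124 for other numbers, and same-numbered arrays of the 2 diets at -0.0693 to 0.12 within an amount and -0.100 to 0.0649 between amounts, so that numbers pair RNA amounts and not diets. With the number across diets as a replicate block 78 probe sets passed, with diet and number as a random replicate block 250, and with the 6 pairs as a block for RNA amount 2. None of these calls was an acute phase probe set.

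Pairs of genes that passed went from 0 to 4 with a common median, to 4 with the 10 µg arrays alone and to 2 when diet means were not removed. For Hp and Lcn2, r turned to 0.352, 0.134 and 0.249 in these 3 settings. For Orm1 and Hp it was -0.0752 with quantile normalization, which leaves Hp little room to vary. Without both animals 3, r turned to -0.0552 for A2m and Hp, -0.28 for A2m and Serpina3n, -0.40 for Orm1 and Hp, -0.00017 for Orm1 and C3, -0.32 for Orm1 and Serpina3n, -0.49 for C3 and Lcn2 and -0.72 for Serpina3n and Lcn2. Without 1 animal, r ranged from -0.53 to 0.66 for A2m and Hp, -0.67 to 0.68 for Orm1 and Hp, both negative without sufficient animal 3, and -0.76 to 0.36 for Hp and Lcn2.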
